A study of Caenorhabditis elegans with 2 samples.

Results

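The genes examined were 8 cytoskeletal genes of the nematode Caenorhabditis elegans: the actin genes act-1, act-2, act-3 and act-5, the alpha-tubulin genes tba-1 and tba-2, and the beta-tubulin genes tbb-1 and tbb-2. They were taken by name from the Ensembl annotation of WBcel235, and all 8 were found among its 19973 protein-coding genes of the nuclear chromosomes. A region was counted for a gene when its summit lay between 1000 bp upstream of the outermost transcript start and the gene end, called the gene window here. The data were regions of chromatin immunoprecipitation followed by sequencing (ChIP-seq) on whole fourth-stage (L4) larvae of both sexes, pooled, in 2 biological replicates of 1 group. Per the labels, the strain was OP337, unc119(ed3) with the integrated array wgIs377, which carries a tagged fkh-10 (TY1, EGFP and FLAG) and unc119. The selected fragments were 150 to 350 bp long. All animals carried the construct and the control library was not analysed here, so conditions could not be compared. Whole animals were used, so strong occupancy in few cells and weak occupancy in many cannot be told apart.

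Actin polymerises into the filaments that shape cells and, with myosin, contract muscle. Alpha- and beta-tubulin form the dimers of microtubules, the tracks of intracellular transport and the fibres of the mitotic spindle. In C. elegans, act-1, act-2 and act-3 lie together in a cluster and encode nearly identical actins of muscle and cytoplasm, whereas act-5 encodes a divergent actin of the intestinal microvilli. tba-1, tba-2, tbb-1 and tbb-2 are the broadly expressed tubulin genes and supply the spindles of the early embryo. FKH-10 belongs to the forkhead family of transcription factors, whose winged-helix domain contacts DNA.

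Per the deposited file descriptions, the IDR list (2253 regions) holds what passed a threshold the authors set on the irreproducible discovery rate (IDR) of the 2 replicates. The relaxed lists, background included, number 19381 (pooled), 30000 (replicate 1) and 28886 (replicate 2). Each region has a signal, the authors' value, and rank 1 is the strongest region of a list. Signals were read within a list only, since no source used here gives their scale. The depth in reads is unknown. The gene fkh-10 had 0 regions within 20 kb in each of the 4 lists. The integrated array also carries fkh-10, and the control library was not analysed here. The number of regions to expect in this span was not worked out either. The absence therefore cannot decide whether the label is right, and the label was not tested. For that reason the libraries are called the libraries labelled FKH-10. No region of replicate 1 recurred in replicate 2 with identical bounds and signal.

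Of the 8 genes, act-2 and tbb-2 had an IDR region in the gene window, 1 each, and the other 6 had none. Across all protein-coding genes, 8.56% had one by the same rule. Both regions lay upstream of the gene, in the promoter interval of 1000 bp upstream to 200 bp downstream of a start, where 6.98% of all genes had an IDR region. By signal, act-2 ranked 827 and tbb-2 ranked 1202 of 2253, so act-2 lay in the stronger 1126 regions of the list and tbb-2 did not. In the relaxed pooled list 7 of the 8 genes had a region in the window, against 45.0% of all genes, and tba-1 had none. All 8 had a region in replicate 1, against 61.6% of all genes, and 6 had one in replicate 2, against 55.1%. The windows of the 8 genes were from 2364 to 3809 bp long with a median of 2686 bp, and the median over all genes was 3027 bp. With 8 genes chosen as a list, these counts are descriptions and were not tested.

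**Figure D1:**
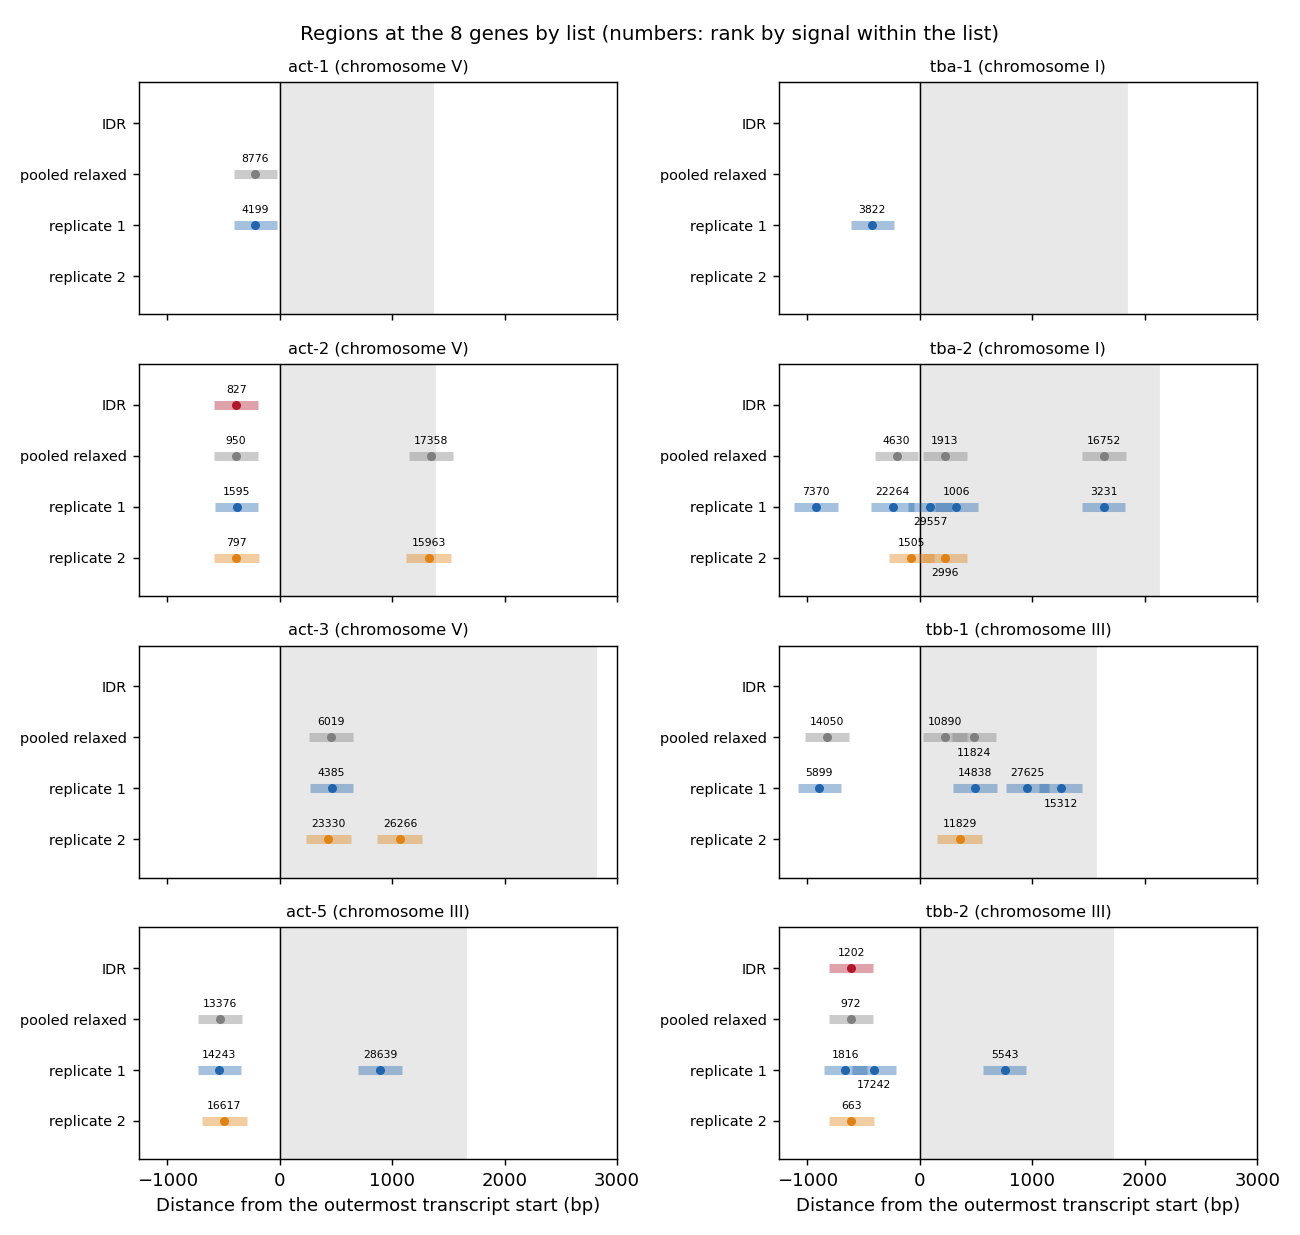
Regions of the 4 lists at each of the 8 genes, by distance from the outermost transcript start in bp (negative is upstream; the grey band is the gene). Bars are the deposited regions, dots their summits, and numbers their rank by signal within the list; act-2 and tbb-2 are the genes with an IDR region, ranked 827 and 1202.

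act-2 (WBGene00000064; ce11, chromosome V, 11076777 to 11078154, minus strand) had the strongest IDR region of the 8 genes. It spanned 11078346 to 11078735, with the summit at 11078541, 387 bp upstream of the only annotated start. Its signal was 67.0 in the IDR list and 62.6 in the pooled list, where it ranked 950 of 19381. In replicate 1 the signal was 22.5 and the rank 1595. In replicate 2 the signal was 39.6 and the rank 797. The summits of the 2 replicates lay 3 bp apart, the closest placement among the 6 genes with a region in each replicate. No promoter of another coding gene reached this summit, but it lay inside the noncoding RNA genes T04C12.18 and T04C12.24, which are annotated on opposite strands there.

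tbb-2 (WBGene00006537; ce11, chromosome III, 4015910 to 4017627, minus strand) had its IDR region at 4018044 to 4018433, with the summit at 4018239, 612 bp upstream of the start. The signal was 58.0 in the IDR list and 62.0 in the pooled list, with pooled rank 972. Replicate 2 placed it at rank 663 with a signal of 42.1, the strongest region of the 8 genes in that replicate. Replicate 1 placed it at rank 1816 with a signal of 21.1 and its summit 50 bp away. This summit too lay inside a noncoding RNA gene, C36E8.10, and at no promoter of another coding gene. Replicate 1 alone also had a region 408 bp upstream (rank 17242) and another in a coding exon 755 bp downstream of the start (rank 5543).

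The sequence under both summits is shown because these are the only regions of the 8 genes past the authors' threshold. The letters are RefSeq WBcel235, read on the strand of the gene, 201 bases centred on the summit, with the 21 bases around the summit in capitals. They are chrV:11078441-11078641 and chrIII:4018139-4018339, both on the minus strand.
act-2: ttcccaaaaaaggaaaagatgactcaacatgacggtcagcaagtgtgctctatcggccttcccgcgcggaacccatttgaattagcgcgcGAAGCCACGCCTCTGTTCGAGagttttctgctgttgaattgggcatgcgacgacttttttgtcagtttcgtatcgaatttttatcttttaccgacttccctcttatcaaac
tbb-2: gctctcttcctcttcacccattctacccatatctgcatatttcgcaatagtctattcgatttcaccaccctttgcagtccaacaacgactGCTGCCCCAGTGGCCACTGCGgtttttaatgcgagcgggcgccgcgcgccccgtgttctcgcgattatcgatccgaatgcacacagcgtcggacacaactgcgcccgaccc

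GC made up 46.3% of the act-2 window and 56.2% of the tbb-2 window, where the median over all IDR summits was 42.8% and the quartiles were 37.8% and 47.3%. The act-2 window thus lay inside the middle range of IDR regions and the tbb-2 window above it. Motifs were sought on either strand: the GAGA repeat GAGAGAG, the TATA box as TATAAA, and the forkhead consensus in 4 forms, of which the first was ATAAACA, the second ATAAATA, the third GTAAACA and the last GTAAATA. Neither window held any of them. Among all IDR windows of this length 20.1% held the GAGA repeat, 14.0% a forkhead form and 10.8% the TATA box. In the 300 bases from 250 upstream to 50 downstream of the outermost start, the GAGA repeat occurred at act-5 and tbb-2 and at 6.78% of all coding genes. There a forkhead form occurred at tba-1 alone among the 8 genes and at 33.9% of all. The TATA box occurred at act-5 and tba-1 and at 37.9% of all. A match to such letters is a description of the sequence and marks no binding site.

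act-2 also had a weak region over its 3′ UTR, with the summit at 11076807 in the pooled list (rank 17358) and 24 bp away in replicate 2 (rank 15963), and none within 100 bp in replicate 1. In both lists a stronger region overlapped it, with the summit past the gene end and so outside the window. That summit was at 11076603 in the pooled list (rank 8382) and 11076632 in replicate 2 (rank 4399). The genes most similar to act-2 in rank over the IDR, replicate 1 and replicate 2 lists were adr-1 and nsf-1, which share a promoter region ranked 933, 1630 and 853. Next came glb-6, ranked 849, 1873 and 843. The measure was the summed absolute difference of the log10 ranks, 0.0913 for the shared region and 0.106 for glb-6, among 1265 genes with a promoter IDR region matched in both replicates. It rests on 3 lists that are not independent.

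tba-2 (WBGene00006529; ce11, chromosome I, 12964674 to 12966795, minus strand) had strong regions in each replicate, but the strongest summits lay apart and none was in the IDR list. It has 2 annotated starts, at 12966795 and 12966271. In replicate 1 the strongest of its 5 regions had the summit at 12966471, in the intron between the starts, with a signal of 27.8 and rank 1006, ahead of every other region of the 8 genes in that replicate. In replicate 2 the strongest of its 2 regions lay 402 bp away at 12966873, 78 bp upstream of the outer start, with a signal of 30.2 and rank 1505. The other replicate 2 region was in the intron at 12966573 (signal 19.8, rank 2996), 102 bp from the replicate 1 summit, where 100 bp was the limit for the same site. These 2 intron regions overlapped, spanning 12966279 to 12966662 in replicate 1 and 12966373 to 12966772 in replicate 2. They would count as the same site with 200 bp as the limit. The pooled list had 3 regions, at the intron (12966572, signal 44.2, rank 1913), upstream (12967003, signal 24.8, rank 4630) and in a coding exon (12965158, signal 13.7, rank 16752). The pooled intron region was among the first 2253 of the pooled list, a number equal to the length of the IDR list, yet no IDR summit lay in the window.

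Neighbouring genes touched some of these regions. The replicate 1 region of tba-2 at 12967719 (rank 7370) lay inside pbs-2, a proteasome subunit gene, and the coding exon regions at 12965158 and 12965163 lay in the promoter interval of C47B2.2. The nearest IDR summit outside the tba-2 window was at 12968693, in the promoter interval shared by pbs-2 and eif-6, 1.90 kb from the outer start of tba-2. It ranked 2231 of 2253.

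tba-1 (WBGene00006528; ce11, chromosome I, 9785781 to 9787624, minus strand) had 1 region in the 4 lists, in replicate 1 alone, with the summit at 9788047, 423 bp upstream of the outer start (signal 15.0, rank 3822). That summit also lay in the promoter interval of cox-5B, which encodes a cytochrome c oxidase subunit and is transcribed away from tba-1 on the other strand. A much stronger region stood between the 2 genes, nearer to cox-5B. Its summit at 9788711 was 1087 bp from the tba-1 start and so outside the window. It ranked 20 in the IDR list (signal 171), 43 in replicate 1 (signal 63.8) and 16 in replicate 2 (signal 100). tba-1 was thus the gene with the fewest regions in its own window.

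tbb-1 (WBGene00006536; ce11, chromosome III, 10740868 to 10742432, minus strand) had weak regions only. Its 3 pooled regions had signals of 16.5, 15.9 and 14.8 and ranked 10890, 11824 and 14050. The first and second had summits in coding exons, 224 and 478 bp downstream of the start, and the third lay 827 bp upstream, inside rib-2, the divergent neighbour. Both exon summits also lay in the promoter interval of rib-2. Replicate 1 had 4 regions, 3 of them in coding exons, and its strongest was the upstream one (signal 12.9, rank 5899). Of its exon summits, 10741942 lay in the promoter interval of rib-2, and 10741182 and 10741477 in that of K01G5.8. Replicate 2 had 1 region, in a coding exon at 10742076 (signal 9.38, rank 11829) and also in the promoter interval of rib-2. The strongest summits of the replicates were 1251 bp apart, and no region had a partner within 100 bp in the other replicate.

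act-5 (WBGene00000067; ce11, chromosome III, 13604412 to 13606066, minus strand) had a weak upstream region in both replicates. The summits lay 536 bp upstream in replicate 1 (signal 9.28, rank 14243) and 493 bp upstream in replicate 2 (signal 7.91, rank 16617), 43 bp apart. The pooled region there had a signal of 15.1 and ranked 13376. Replicate 1 alone had a further region in a coding exon, 892 bp downstream of the start (rank 28639). The nearest IDR summit lay 27976 bp from the start, farther than for any other of the 8 genes.

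**Figure D2:**
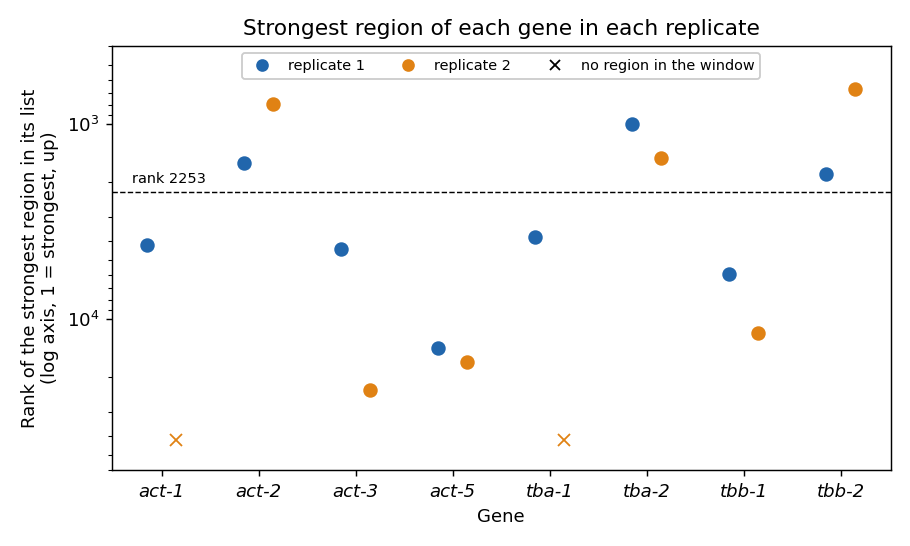
Rank of the strongest region in the gene window of each gene (log axis, stronger regions higher) in replicate 1 and replicate 2; crosses mark windows with no region, and the dashed line is rank 2253. act-2, tba-2 and tbb-2 lie above the line in both replicates, and act-1 and tba-1 have no region in replicate 2.

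act-2, tba-2 and tbb-2 ranked ahead of the other 5 genes in each replicate. They were the genes with a region among the 2253 strongest of replicate 1, where 8.12% of all genes had one, and the same 3 were those among the 2253 strongest of replicate 2, where 8.47% had one. In replicate 1 the order by the strongest region was tba-2 (rank 1006), act-2 (1595), tbb-2 (1816), tba-1 (3822), act-1 (4199), act-3 (4385), tbb-1 (5899) and act-5 (14243). In replicate 2 it was tbb-2 (663), act-2 (797), tba-2 (1505), tbb-1 (11829), act-5 (16617) and act-3 (23330), with no region at act-1 and tba-1. Behind act-2, tba-2 and tbb-2 the step was from rank 1816 to 3822 in replicate 1 and from 1505 to 11829 in replicate 2. A wide gap was thus seen in replicate 2 only. tba-2 and tbb-2 changed places between replicates with act-2 between them in each, and act-3 fell behind tbb-1 and act-5 in replicate 2, so no order that holds in both replicates can be given for all 8 genes. Of the 18 regions of replicate 1 at the 8 genes, 4 (22.2%) had a replicate 2 summit within 100 bp, where 22.3% of all replicate 1 regions had one. Of the 9 regions of replicate 2, 4 (44.4%) had a replicate 1 summit, where 23.1% of all had one. The matched regions were those of act-2, tbb-2, act-3 and act-5, and only at the first 2 did they rank high in both lists. The overlapping tba-2 intron regions, ranked 1006 and 2996, had summits 102 bp apart and so just missed this limit.

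Within the windows reaching 1000 bp upstream, the alpha-tubulin pair and the beta-tubulin pair were each uneven. tbb-2 had an IDR region and tbb-1 had none. tba-2 had regions among the 2253 strongest of each replicate where tba-1 had 1 weaker region in 1 replicate. This depended on the window. The region ranked 20 in the IDR list, nearer to cox-5B, had its summit 1087 bp from the tba-1 start. With 2000 bp upstream, tba-1 and tba-2 both had an IDR region, while the beta-tubulin pair stayed uneven. With 500 bp upstream, neither tbb-1 nor tbb-2 had one. The coding sequences of tba-1 and tba-2 were 86.6% identical and those of tbb-1 and tbb-2 85.0%. Their longest identical stretches were 41 and 29 bases. The 1000 bases upstream of the outermost starts were 52.3% and 52.6% identical by the same global alignment, with no identical stretch over 13 bases.

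The actin cluster needs its own account, because its copies are close to identical. act-3 (WBGene00000065; ce11, chromosome V, 11071690 to 11074498, minus strand), act-2 and act-1 (WBGene00000063; ce11, chromosome V, 11081052 to 11082415, plus strand) lie in that order. act-2 and act-1 are transcribed away from each other from starts 2898 bp apart. The coding sequences of act-1 and act-3 were identical over all 1128 bases, and act-2 was 96.2% identical to each, with a stretch of 224 identical bases. act-5 was 84.1% identical to act-1 and act-3 and 82.5% to act-2. Upstream the resemblance ended: the 1000 bases before the outermost starts of act-1, act-2 and act-3 were 52.4% to 55.1% identical, and their longest shared stretch was 14 bases. The bases before the inner start of act-3 were not aligned.

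Reads from identical copies cannot be placed in 1 of them, so the share of positions that start a 50-base word found once in the genome was counted, on either strand. In the coding exons it was 5.23% at act-1, 7.62% at act-3 and 70.9% at act-2, and 100% at act-5, tba-1, tba-2 and tbb-1 and 99.4% at tbb-2. In the upstream 1000 bases it was 100% at all 8 genes. In the 4 lists, act-1, act-2 and act-3 together had 0 summits in coding exons (of 1 IDR, 4 pooled, 3 replicate 1 and 4 replicate 2 regions). act-5 and the tubulin genes had 3 of 8 pooled, 6 of 15 replicate 1 and 1 of 5 replicate 2 summits there. The pooled and replicate 2 ones all lay in a neighbour's promoter interval, that of C47B2.2 at tba-2 or of rib-2 at tbb-1. In replicate 1 those at tba-2 and tbb-1 lay in the interval of C47B2.2, rib-2 or K01G5.8. The replicate 1 ones at act-5 and tbb-2 lay in no other promoter interval. Coding exons held 13.8% of all pooled, 22.3% of all replicate 1 and 12.2% of all replicate 2 summits. With so few regions in the cluster, its counts of 0 cannot be told from these shares. The part of word uniqueness in these counts was not tested, and no source used here gives the read length or the treatment of reads with several positions.

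**Figure D3:**
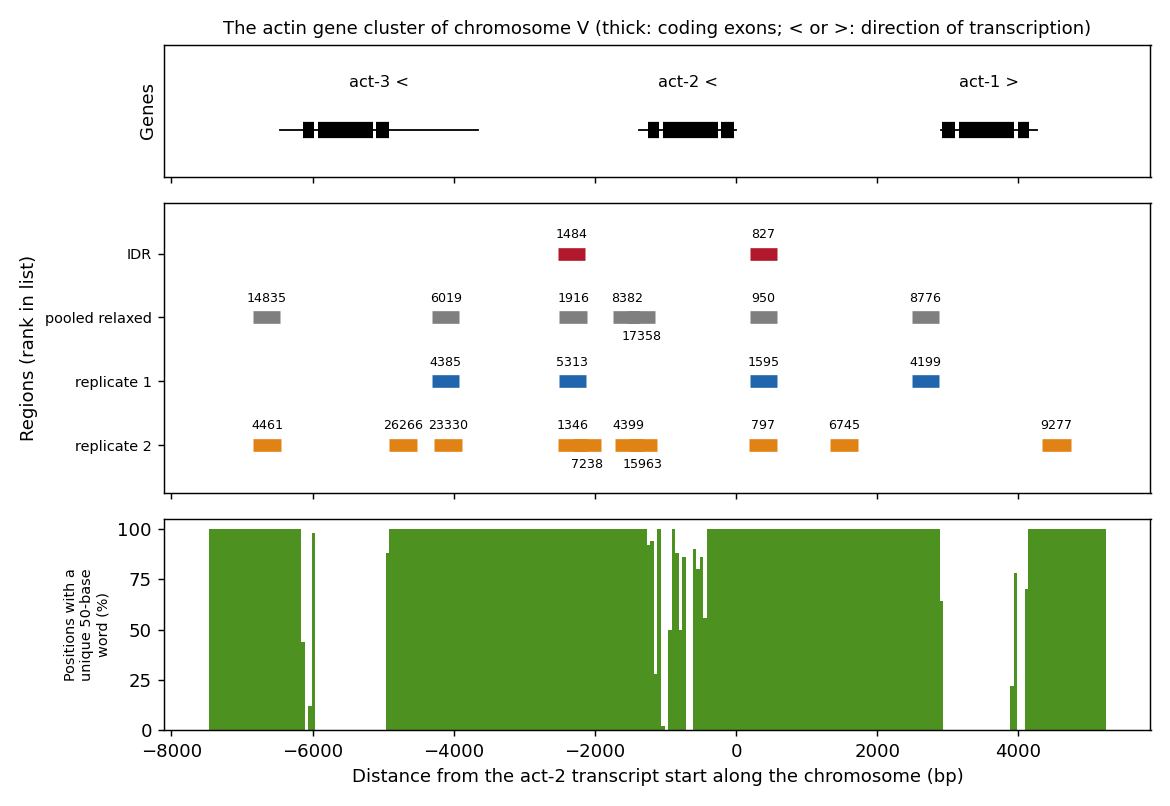
The actin cluster drawn by distance from the act-2 start in bp along the chromosome: genes with coding exons as thick bars (top), regions of the 4 lists with their rank (middle), and the percentage of positions per 50 bp that start a 50-base word found once in the genome (bottom). The IDR regions, ranked 827 and 1484, lie between the genes where the words are unique, and the coding exons of act-1 and act-3 are nearly empty of unique words.

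The upstream and intron regions could be told apart by sequence, and they differed among the 3 copies. The region over the act-2 3′ UTR was not unique throughout. Inside the gene window, 91.6% of its positions in the pooled list and 83.1% in replicate 2 started a unique 50-base word. The act-2 upstream region was unique over all its positions and had no counterpart of like rank in the windows of act-1 and act-3. act-1 had 1 region, with the summit 215 bp upstream of its start in the pooled list (11080837, signal 18.0, rank 8776) and 217 bp upstream in replicate 1 (signal 14.5, rank 4199), and none in replicate 2. act-3 has 3 annotated starts, at 11074498, 11074494 and 11073264. Its main region lay in the long intron that follows the upstream starts, at 11074039 in the pooled list (signal 21.5, rank 6019), with rank 4385 in replicate 1 and 23330 in replicate 2. This summit also lay in the promoter interval of the inner start. Replicate 2 had a further intron region at 11073429 (rank 26266), 165 bp upstream of the inner start.

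The other IDR region of the cluster fell between act-2 and act-3, outside both windows. It spanned 11075626 to 11076015, with the summit at 11075821, 1323 bp upstream of the outer act-3 start. Its signal was 52.6 and its rank 1484 in the IDR list, with ranks of 5313 in replicate 1 (signal 13.3) and 1346 in replicate 2 (signal 31.8). In the 12.7 kb from 1000 bp before the cluster to 1000 bp after it, replicate 1 had 4 regions and replicate 2 had 10. The sites found in both were the act-2 upstream region, this region and the act-3 intron. The sequence at the summits of act-1 (chrV:11080737-11080937, plus strand), the act-3 intron (chrV:11073939-11074139, minus strand) and upstream of act-3 (chrV:11075721-11075921, minus strand) is given for comparison with act-2 above, with the same use of capitals, to show how the noncoding parts of the copies differ.
act-1: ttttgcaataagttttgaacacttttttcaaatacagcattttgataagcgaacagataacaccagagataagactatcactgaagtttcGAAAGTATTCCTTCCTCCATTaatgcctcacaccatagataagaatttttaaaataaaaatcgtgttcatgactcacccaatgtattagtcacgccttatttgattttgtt
act-3 intron: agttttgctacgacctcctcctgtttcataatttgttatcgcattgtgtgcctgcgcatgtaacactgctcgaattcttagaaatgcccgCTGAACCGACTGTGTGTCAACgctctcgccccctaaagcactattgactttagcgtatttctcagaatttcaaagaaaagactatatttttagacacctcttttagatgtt
act-3 upstream: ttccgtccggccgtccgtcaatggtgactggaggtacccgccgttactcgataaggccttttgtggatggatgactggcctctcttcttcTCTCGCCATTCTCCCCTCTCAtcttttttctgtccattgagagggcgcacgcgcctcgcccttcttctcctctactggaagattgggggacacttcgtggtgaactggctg

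GC made up 31.8% of the act-1 window, 41.3% of the act-3 intron window and 56.2% of the window upstream of act-3. None of the 3 held the GAGA repeat, the TATA box or a forkhead form. The IDR regions of the cluster, at 46.3% and 56.2%, were thus richer in GC than the act-1 region and the act-3 intron region, and the GC content of its other weak regions was not measured.

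Other genes of the actin and tubulin cytoskeleton were listed by function, and the share of each list with an IDR region in the gene window was set beside the 8.56% of all genes. Of 8 other actin and actin-related genes 2 had one. These were act-4, a muscle actin gene outside the cluster, and arx-6, which encodes a subunit of the Arp2/3 complex that branches filaments. The act-4 region lay in an intron on chromosome X, 448 bp upstream of the inner start (4962427, signal 70.3, rank 733), and ranked 669 in replicate 1 and 778 in replicate 2. It thus ranked above the act-2 region in the IDR list. The coding sequence of act-4 was 94.1% identical to act-1. The arx-6 region, shared with the promoter of tost-1, ranked 1828.

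Of 12 other tubulin genes 1 (8.33%) had an IDR region, near the share of all genes. It was ben-1, the beta-tubulin gene known for benzimidazole sensitivity, with a signal of 59.6 and rank 1112. Of 26 regulators of actin filaments 5 (19.2%) had one. By promoter interval the share was 15.4%, where 6.98% of all genes had one. The promoter regions among them were at cap-2 (signal 111, shared with gmps-1), spc-1 (signal 97.3), wve-1 (signal 79.8, shared with R06C1.4) and cap-1 (signal 45.9, shared with D2024.4). cap-1 and cap-2 encode the 2 subunits of the filament capping protein, spc-1 encodes alpha-spectrin and wve-1 a WAVE protein that activates Arp2/3. The region of the fifth, the gelsolin-family gene fli-1, lay in an intron 5206 bp from the nearest start (rank 2252).

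Of 11 genes of tubulin folding 2 (18.2%) had an IDR region, the prefoldin genes pfd-1 (rank 752) and pfd-6 (1431), and both regions were shared with a neighbouring promoter. Of 24 genes of microtubule-associated proteins and motors 7 (29.2%) had one. The strongest in the promoter interval were at ptl-1, the tau-family gene (rank 338), spas-1, the spastin gene for microtubule severing (464), maph-1.1 (695) and dnc-1, a dynactin subunit gene (835). The dnc-1 region was shared with the promoter of lsm-7. Farther into the gene, unc-33 had a region in an intron at rank 762. In replicate 1 the 4 promoter regions ranked 221, 630, 929 and 1503, and in replicate 2 they ranked 440, 434, 747 and 561. In the IDR list ptl-1, spas-1 and maph-1.1 ranked above the act-2 region at 827, and dnc-1 ranked just below it. None of these shares was tested, and the lists are small. The window lengths of the listed genes are not given here, and a longer window has room for more summits.

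**Figure D4:**
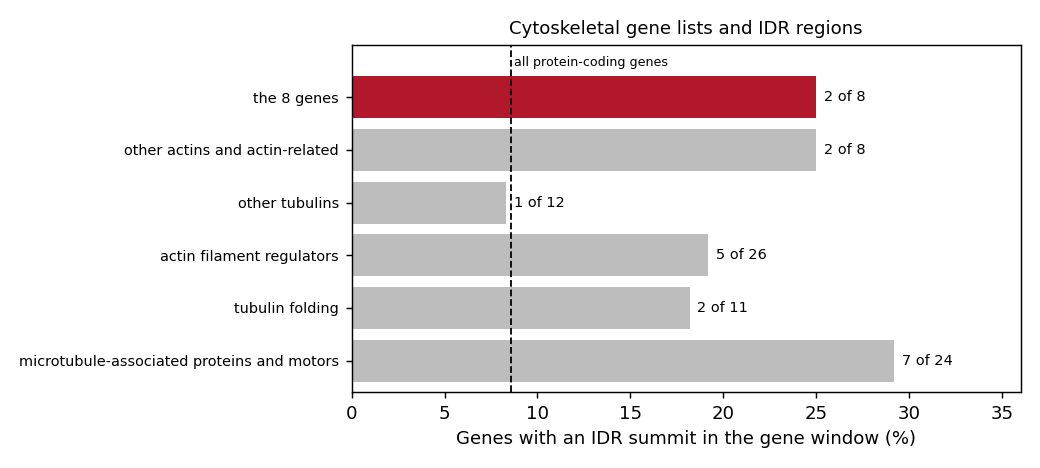
Percentage of genes with an IDR summit in the gene window (horizontal axis) for the 8 genes and for 5 lists of cytoskeletal genes (bars, with counts), and for all 19973 protein-coding genes (dashed line, 8.56%). The bars run from 8.33% for other tubulins to 29.2% for microtubule-associated proteins and motors, and the 8 genes are at 25.0%.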

How the data were processed

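ChIP-seq regions of 2 biological replicates were analysed. The authors deposited the lists in narrowPeak order, with a signal for each region; the lists on ce11 were used and those on ce10 were not used here. The aligner, the peak caller and their settings: not given in the sources used here. No region ran past the chromosome ends of RefSeq WBcel235, whose sequence was used with the Ensembl release 115 annotation. A summit was the region start plus its deposited offset, counted from 1. Regions with summits within 100 bp were 1 site, and ranks were by signal within a list. Identity is the share of matching bases in a global alignment, over the longer sequence. The assignment of summits to gene windows was checked on simulated data, where 200 of 200 planted summits were recovered. Python 3.11.15, pandas 2.3.3 and Biopython 1.88 were used.

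The genes and the cytoskeletal lists were chosen with earlier results of these data known. Genes named were the 8 genes, up to 4 per list by signal of the promoter IDR region, the 3 most similar to the strongest member in rank, and genes sharing a region. act-4, arx-6, ben-1, pfd-1 and pfd-6 follow that rule, and fli-1 and unc-33 were added after their values were seen. No test was made: there was 1 group and the genes were a chosen list. Alternatives varied the window, the threshold, the assignment rule, the replicates, the matching distance and the word length. Sequence of chromosome I is not printed.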

Additional observations from a re-analysis of the deposited data

How the results depend on the processing

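The number of the 8 genes with an IDR region was 2, by gene window and by promoter, from 2 regions. Each of these 3 counts fell to 1 with 500 bp upstream (act-2 alone) and with the stronger 1126 regions of the IDR list (act-2 alone). Each rose to 5 with 2000 bp upstream, which added act-3, tba-1 and tba-2. The added tba-1 region was the one at cox-5B. The added tba-2 region lay in the promoter interval shared by pbs-2 and eif-6 and ranked 2231 of 2253. With any overlapping base the counts were 3, which added tba-1, and with the nearest start only they stayed at 2. Without replicate 1 and without replicate 2, using the 2253 strongest regions of the other replicate, they were 3 in each case, which added tba-2. By gene window, 8.47% of all protein-coding genes had a region without replicate 1 and 8.12% without replicate 2. The share of all genes under the other alternatives is not given here, so those counts have none beside them. Both IDR regions had a summit in each replicate list with 50, 100 or 200 bp as the matching distance. The IDR list was itself chosen by the agreement of these 2 replicates, so this is no independent check. At tbb-2 the replicate 1 summit lay exactly 50 bp away, at the shortest limit. Over all regions of the 8 genes, 99.6% of positions started a 50-base word found once in the genome, and 99.2% with 36 bases. No paired analysis was possible because the labels give 1 group. Depth is unknown, so weak regions absent from 1 replicate may lie below its detection.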
